A study of Arabidopsis thaliana with 16 samples.

Results

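The m6A peaks around start codons were the MeRIP peaks whose summit, the highest point of the peak, lay in the 5′ UTR or within 100 nt of the start codon of a nuclear protein-coding gene of Arabidopsis thaliana. Distances were counted along the spliced first isoform of each gene, and summits within 100 nt of the stop codon were left out. Of 143128 peaks in 6 lists, 6476 were start peaks (4.52%), and they lay on 2779 of 27407 coding genes. The rule used position only, so the strength, recurrence and sequence of these peaks were not used to choose them.

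Whole Col-0 seedlings, 20 days old and grown on plates at 22 °C with 12 h of light per day, were held at 4 °C for 24 h (cold) or left untreated (control). MeRIP pulls down mRNA fragments of about 100 nt with an antibody against N6-methyladenosine (m6A), and 3 cold and 3 control MeRIP peak lists were compared. Total mRNA was sequenced in 3 cold and 3 control libraries, and polysomal RNA, the RNA recovered with ribosomes, in 2 cold and 2 control libraries. All plants were the wild-type ecotype, with no mutant of the m6A pathway among the groups used here, and the labels do not state whether replicates were grown apart. The p-values therefore measure a spread between samples that may be technical.

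m6A is the most common internal mark of mRNA. In plants it is written by a complex around the methyltransferases MTA and MTB, removed by demethylases such as ALKBH10B and read by YTH-domain proteins such as ECT2. It is best known from the 3′ end of the coding sequence and the 3′ UTR, where it bears on RNA stability and poly(A) site choice. The leader and the start codon are where ribosomes scan and begin, and upstream open reading frames (uORFs) in the leader can hold translation back, which is why marks there are of interest.

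The transcript sequence at the summit is shown for start peaks called in all 6 lists and, for contrast, for 1 called only in cold and 1 called only in control. Each line gives 29 nt of spliced mRNA centred on the median summit (RefSeq models of TAIR10.1, written as DNA, 5′ to 3′ in the sense of the gene). Capitals mark the word CTCC, which was picked out after the values below had been seen.
CINV1 (chr1:13125145-13125173, minus strand): caccgccaccgccaccgccgccgccgacg
AT1G27430 (chr1:9526988-9527016, minus strand): cttcttcttcttcttctactgcgctcgct
ATRER1C1 (chr2:9917727-9917755, plus strand): gactcatcatCTCCcgccgacgccgttaa
AT2G11890 (chr2:4803033-4803061, plus strand): ccgctgctcatCTCCgtctcaccactctc
CDF1 (chr5:25070797-25070825, minus strand): acgagtaaaaaagagcacatcttaggaaa
HWS (chr3:22792904-22792932, plus strand): gctcttgagaatggaagcagaaacgtctt
MYBL2, cold lists only (chr1:26796217-26796245, minus strand): atctcactttgaaaaagacatgaacaaaa
AT1G67250, control lists only (chr1:25164883-25164911, minus strand): tcgatttggtcttcacggcgttaagagca

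Summits in the start zone gathered on the coding side of the start codon. Of the 6476 summits, 68.7% lay 0 to 100 nt after the first base of the start codon, 15.3% lay 1 to 100 nt before it and 15.97% lay farther upstream in the leader, with a median of 47 nt after it. The median was 48, 40 and 53.5 nt in the 3 cold lists and 55, 46 and 42 nt in the 3 control lists, so the conditions overlapped. There was no local maximum of summits at the start codon itself. Summits per 1000 measured genes and 20 nt averaged 1.73 ± 0.61 (SD over 6 lists) at 40 to 60 nt before the start codon, 3.92 ± 1.21 in its first 20 nt and 13.6 ± 2.74 at 80 to 100 nt after it. They went on climbing beyond the zone, to 19.1 ± 3.26 at 140 to 160 nt after the start codon. Measured genes are the 17952 coding genes that reached 1 CPM, a normalised read count, in the mean of the cold and also of the control mRNA libraries.

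**Figure D1:**
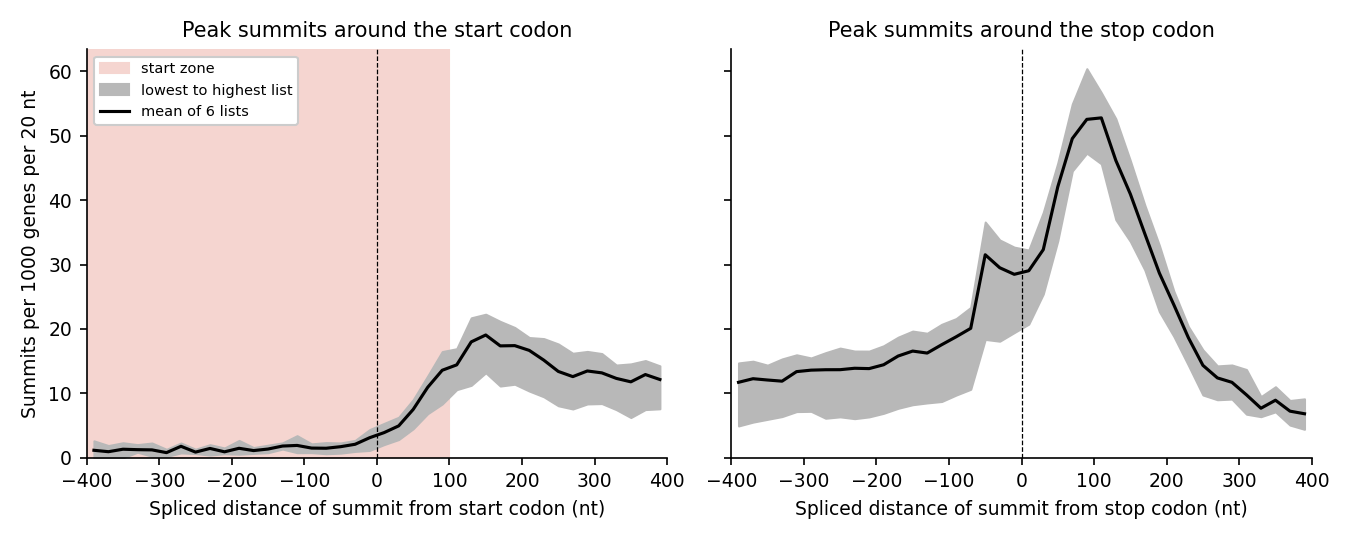
Peak summits per 1000 measured genes in bins of 20 nt, by spliced distance (nt) from the start codon (left, start zone shaded) and the stop codon (right); the line is the mean of the 6 lists and the grey band runs from the lowest to the highest list. Summits were sparse in the leader, rose through the first 100 nt of coding sequence and reached 19.1 per 1000 genes at 140 to 160 nt, below the level after the stop codon.

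The limit of 100 nt thus cuts a slope. Just inside it (its last 5 nt) lay 402 peaks, 22.4% of them with q of at most 0.05, and just outside it (the next 5 nt) lay 380, with 18.9%. The start zone made up 17.2% of the summed transcript length of the measured genes but held 4.14% to 5.06% of their peaks in a list, 0.241 to 0.294 of what its length would give. The peaks were narrow, with a median width of 142 nt, and 0.679% of them had their summit within 50 nt of the annotated transcript start. Their spread over chromosomes 1 to 5 followed that of the measured genes, with 26.9% of start loci on chromosome 1, which holds 26.1% of the genes.

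Among the classes of peak on first isoforms, start peaks taken as a whole were the weakest by q. On average 18.8% of start peaks in a list had a q of at most 0.05, against 21.8% of peaks elsewhere in the coding sequence, 39.7% of peaks within 100 nt of the stop codon and 52.2% of peaks in the distal 3′ UTR. The share among start peaks was 23.9%, 23.4% and 11.4% in the cold lists and 16.1%, 18.3% and 19.6% in the control lists. It was below that of each of the other 3 classes in 6 of 6 lists. The share differed within the start zone, with the lists pooled. It was 20.5% for summits more than 100 nt upstream and 21.0% for those 1 to 100 nt before the start codon. Summits after the start codon had 18.9%. The gap to stop peaks was -20.9 ± 4.03 percentage points and the gap to coding-sequence peaks -3.03 ± 1.92 points (SD, n = 6 lists; exact two-sided sign-flip permutation test, p = 0.031, the smallest 6 lists allow, also after adjustment over 3 contrasts).

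The fold enrichment of the peaks, used here only as a rank within its own list, ordered the classes in a like way. The median start peak stood at percentile 39.6 of its list, the median coding-sequence peak at 42.4, the median stop peak at 53.7 and the median distal 3′ UTR peak at 66.6. The start percentile was below the stop percentile in 6 of 6 lists, with a mean difference of -14.03 (exact sign-flip permutation test, p = 0.031, adjusted p = 0.0469), and below the coding-sequence percentile in 5 of 6 lists, with a mean difference of -2.80 (exact test, p = 0.0625). Among peaks with q of at most 0.05 alone, start and stop peaks differed by -1.02 percentile points (exact permutation p = 0.21875). Within the start zone, peaks in the leader more than 100 nt upstream had a median percentile of 47.8, those 1 to 100 nt before the start codon 45.5 and those after it 35.5.

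**Figure D2:**
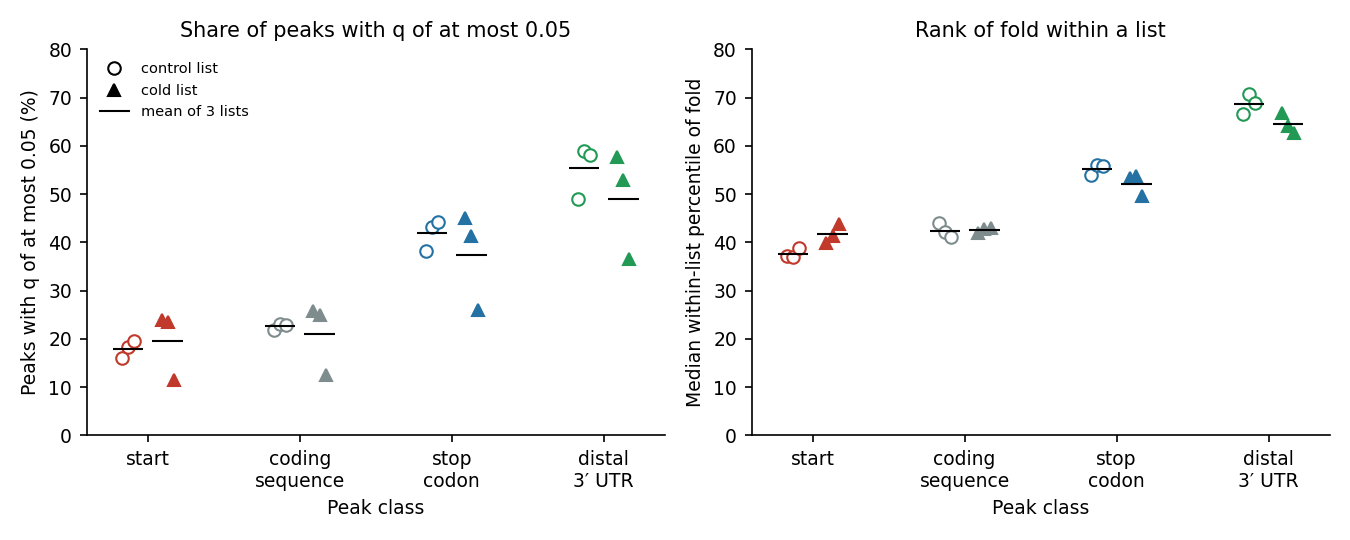
Share of peaks with a q of at most 0.05 (%, left) and median within-list percentile of the deposited fold (right) by peak class; each point is 1 of the 3 control (open circles) or 3 cold lists (filled triangles), and bars are means of 3. In the left panel start peaks are below stop and distal 3′ UTR peaks in 6 of 6 lists, and the lowest cold point of each class is replicate 3, the shortest list; in the right panel the start medians run from 37.0 to 38.8 in control and from 39.9 to 43.8 in cold, a difference that was not tested.

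Over all peaks, the number and share of start peaks did not differ between cold and control beyond the spread between lists. Start peaks numbered 1068, 1285 and 614 in the cold lists and 1025, 1273 and 1211 in the control lists. The cold list with 614 was also the shortest, with 15383 peaks in all against 23174 to 27310 in the other 5. As a share of the peaks on first isoforms, start peaks made up 4.83%, 5.09% and 4.17% in cold and 4.58%, 4.93% and 4.69% in control. The means were 4.70% ± 0.475 and 4.73% ± 0.176 (SD, n = 3 each; exact two-sided permutation test, p = 0.9, adjusted over 5 measures p = 1.0, where 3 against 3 lists cannot go below 0.1). The number of start peaks, their share with q of at most 0.05, their median distance and the share downstream of the start codon gave exact permutation p of 0.7 to 1.0. Without cold replicate 3 the difference in share was 0.232 points, and it was -0.0315 points with it.

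Peaks on the same gene that overlapped were merged into loci. A locus counts as called in a list only where a peak there has its summit in the start zone; a peak with its summit outside the zone can still overlap the locus. Of the 2914 start loci 1421 (48.8%) were called in a single list and 177 (6.07%) in all 6. Of the stop loci 19.8% were in all 6 lists, of the coding-sequence loci 12.4% and of the distal 3′ UTR loci 23.4%. A pair of lists of the same condition shared 28.8% to 60.9% of a list's start loci, with a median of 50.9%, and a pair of opposite conditions 26.8% to 58.0%, with a median of 46.8%. For stop loci the medians were 70.8% and 67.5%. There were 510 start loci, on 503 genes, in all 3 lists of at least 1 condition, called recurrent from here on. With peaks of q at most 0.05 only, 38 loci were recurrent and 3 were in all 6 lists, those of CINV1, CDF1 and AT2G11890.

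The top start loci in all 6 lists lay on genes of varied function. CINV1 (AT1G35580) encodes a cytosolic invertase, which splits sucrose. Its peak, at a median of -47.5 nt, had folds of 6.12, 4.69 and 4.03 in cold and 3.72, 2.78 and 3.73 in control, and q was at most 0.05 in 6 of 6 lists. CDF1 (AT5G62430) encodes a DOF-type transcription factor that represses flowering genes under clock control. Its peak at -24 nt had folds of 2.53, 3.49 and 3.7996 in cold and 2.94, 2.99 and 3.37 in control. AT2G11890, annotated as an adenylate cyclase, had folds of 2.89, 2.76 and 4.199 in cold and 2.09, 3.54 and 3.20 in control, with the summit 40 nt into the coding sequence. These folds are ratios the authors deposited and are set side by side without a test, since each list has its own scale.

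Other loci of the top 10 lay anywhere from far up the leader to the coding side of the start codon. On AT3G13440, a methyltransferase-family gene with a leader of 982 nt, the summit stood at -450 nt; on AT4G30100, a P-loop hydrolase gene, at -267.5 nt; and on CYCH;1, the cyclin of the kinase that activates other cyclin-dependent kinases, at -201.5 nt. On HWS, an F-box and kelch-repeat gene, it stood 3 nt after the first base of the start codon, and on ATRER1C1, of the Rer1 family that returns membrane proteins to the endoplasmic reticulum, at 98 nt. AT1G27430, a GYF-domain gene, and AT5G25360, of unknown function, make up the 10. Of these 10 genes, AT3G13440 changed in mRNA in the cold, with 12.8, 15.97 and 14.7 CPM against 23.7, 21.5 and 20.7 in control (log2 change -0.69 ± 0.16 SE, quasi-likelihood test of edgeR, Benjamini-Hochberg adjusted over all genes, adjusted p = 0.0168). For the other 9 the adjusted p ran from 0.165 for ATRER1C1 to 0.892 for AT1G27430.

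The bases around start summits were rich in C and poor in G, more so in loci found again. In 51 nt centred on the summit, C made up 25.2% of the bases at loci of 1 list, 27.6% at loci of 4 lists and 28.8% at loci of all 6 lists. Windows at the same distances from the start codon in all measured genes held 23.3%, 22.9% and 22.6% C. G fell the other way, from 20.2% at loci of 1 list to 17.3% at loci of all 6 lists, against 20.8% and 19.6% at the same distances. The sense-strand word CTCC was in 30.9% of windows at loci of 1 list, 41.9% at loci of 5 lists and 36.9% at loci of all 6, and in 25.2%, 24.0% and 23.6% of windows of all measured genes at those distances. CINV1, printed above, is a C-rich example at 62.1% C in the 29 nt shown, and CDF1 and MYBL2, at 13.8% and 17.2%, are counterexamples. These are descriptions over loci, with no test.

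For the words in which plant m6A is usually written, the comparison of start summits with start codons at large differed with the width of the window. GGACT, with A allowed in place of either leading G, stood on the sense strand in 29.5% of windows reaching 50 nt to each side of the summit at start loci of all 6 lists, 26.0% at recurrent start loci and 29.7% of windows around the start codons of measured genes. Within 25 nt of the summit the same words numbered 4.68 per kb at start loci of all 6 lists, 3.48 at recurrent start loci and 3.20 at loci of 1 list, against 3.55 around the start codons of measured genes. From 26 to 48 nt away they numbered 2.72, 2.79 and 3.85 per kb, against 3.75. The 177 loci of all 6 lists thus had more of these words close to the summit and fewer farther out, with no test made. The comparison windows were centred on the start codon itself and were not matched to the distances of the summits from it. At stop loci of all 6 lists the share was 42.4% and at distal 3′ UTR loci 40.6%. TGTA followed by T or C, the core of the words that plant YTH readers prefer, stood in 7.95% of start windows of all 6 lists, against 9.16% around the start codons of measured genes, 28.9% at stop loci and 41.1% at distal 3′ UTR loci. Among the 20 loci named here for their peaks, the CDF1 locus alone had a word of the first kind within 50 nt of its summit. A missing word says only that these letters are not in the window.

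**Figure D3:**
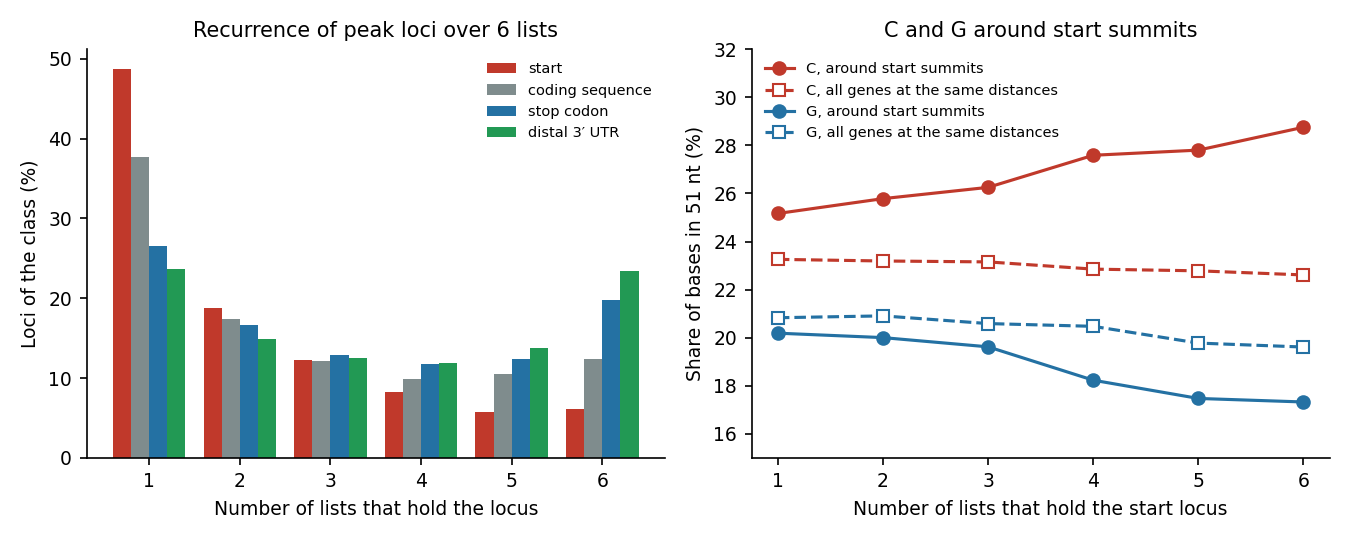
Left, the share of loci (%) of each class by the number of lists that hold them; right, the share (%) of C and G in 51 nt around start summits by the same number (filled), with all measured genes at the same distances (open). Of the start loci 48.8% are in 1 list and 6.07% in all 6, and C rises from 25.2% to 28.8% with the number of lists while the comparison windows stay between 22.6% and 23.3%.

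Genes with recurrent start peaks had long leaders and much mRNA. The median leader was 288 nt in 497 measured hosts and 188 nt in all 17952 measured genes, and the median mRNA level in control was 24.9 and 9.59 CPM per kb of transcript. The share of genes with a start peak in any list climbed from 2.45% in the lowest of 5 equal bins of mRNA level to 28.3% in the highest, and from 6.38% in the bin of shortest leaders to 24.4% in that of the longest. The start zone takes in the whole leader, so the rule itself gives genes with longer leaders more room for a start peak. The difference in leader length is therefore not independent of the rule. The part of leader length and mRNA level in the other differences was not tested. An ATG upstream of the start codon was present in the leader of 72.4% of recurrent hosts and 60.4% of measured genes. Per kb of leader the hosts had fewer, with a median of 5.17 against 5.81. A recurrent peak at the stop codon or in the distal 3′ UTR was present in 52.5% of recurrent hosts and 42.0% of measured genes.

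Start loci called in all 3 lists of 1 condition and none of the other were few. There were 23 called only in cold, 0.789% of the start loci, where 0.487% of all 44591 loci on first isoforms were so called. There were 41 called only in control, 1.41%, where 1.58% of all loci were. The control share is near its background and the cold share above it, but below the cold-only share of distal 3′ UTR loci (1.01%), with no test made. Cold-only calls made up 0.402% of stop loci and 0.31% of coding-sequence loci. Leaving out 1 list loosens the rule, so a rise in the counts follows largely from the rule itself. The counts were then between 29 and 87 for cold (87 without cold replicate 3) and between 46 and 108 for control (108 without control replicate 1). At 12 of the 23 and 11 of the 41 a peak of another class in the other condition overlapped the locus, which leaves 11 and 30.

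mRNA level moved with these calls. Of the 23 genes with cold-only loci 8 were called higher in cold mRNA and 1 lower, with a median log2 change of 0.40. Of the 41 genes with control-only loci 1 was called higher and 17 lower, with a median of -0.55. Over all 19261 genes tested 13.4% were called higher and 12.3% lower, with a median of -0.01. Whether the calls reflect methylation or mRNA level was not tested.

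Among genes whose mRNA reached 20 CPM in cold and in control, the cold-only locus of highest rank was that of MYBL2, a repressor of anthocyanin synthesis. Its peak at -5 nt had folds of 3.47, 2.57 and 3.11 in the cold lists. Its mRNA read 44.8, 65.5 and 104.98 CPM in cold and 14.95, 24.8 and 24.8 CPM in control, without overlap (log2 change 1.62 ± 0.33 SE, edgeR adjusted p = 0.0116). In polysomes it read 108 and 174 CPM in cold and 272 and 305 CPM in control (log2 change -1.05 ± 0.31 SE, edgeR adjusted p = 0.0890). The difference of the 2 changes, called translational efficiency (TE), was -2.75 ± 0.51 (edgeR interaction, adjusted p = 0.0691) and did not pass.

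AT1G69250, with nuclear transport factor 2 and RNA-binding domains, also had a cold-only locus and 81.5, 94.1 and 79.3 CPM in cold against 31.1, 23.8 and 25.8 in control (log2 change 1.58 ± 0.16 SE, edgeR adjusted p = 0.000552). LACS6, a peroxisomal acyl-CoA synthetase, rose by less (log2 change 0.67 ± 0.13 SE, edgeR adjusted p = 0.00645). NARA5, a carbohydrate kinase family gene, and AT3G55170, a ribosomal L29 family gene, had adjusted p of 0.237 and 0.414. At LACS6 and NARA5, whose summits stood at 83 and 88 nt, a peak with its summit outside the start zone overlapped the locus in all 3 control lists. At MYBL2, AT1G69250 and AT3G55170 no peak of any class overlapped it in control.

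The control-only loci of highest rank lay on AT1G67250, which encodes the proteasome maturation factor UMP1, NAPRT2 of NAD synthesis, MDH, a malate dehydrogenase, SBE2.2, a starch branching enzyme, and AT5G50100, a putative thiol-disulfide oxidoreductase. The UMP1 peak, at 70 nt, had folds of 2.98, 2.96 and 3.37 in the control lists, with q of at most 0.05 in 3 of 3. Its mRNA was not lower in cold, with 28.5, 29.5 and 42.7 CPM against 23.1, 22.1 and 22.0 (log2 change 0.47 ± 0.18 SE, edgeR adjusted p = 0.0810). NAPRT2 and SBE2.2 fell (log2 changes -0.78 ± 0.18 and -0.80 ± 0.19 SE, edgeR adjusted p = 0.0166 and 0.0169). MDH and AT5G50100 had adjusted p of 0.0630 and 0.156. At AT5G50100 a peak with its summit outside the start zone overlapped the locus in 2 cold lists; at the other 4 no peak did.

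Recurrent hosts changed in mRNA in both directions in the cold. Of 499 hosts tested 73 were called higher (14.6%) and 76 lower (15.2%), with 13.4% and 12.3% (25.7% in both directions) over all genes; the difference between these shares was not tested. A host could be recurrent through the lists of 1 condition alone. The counts thus include the genes of cold-only loci (8 higher, 1 lower) and of control-only loci (1 higher, 17 lower). The same hosts enter the polysome and TE counts below, and the part of this choice in the shares was not tested. The median log2 change was -0.01 in the hosts and -0.01 in all genes tested. When library totals replaced TMM factors, which shifted the median of all genes from -0.01 to -0.18, the split was 29 higher and 99 lower. Over all 19261 genes tested the split was then 1361 higher and 2872 lower. Without cold mRNA replicate 1 the counts were 44 and 39, without cold replicate 2 they were 43 and 50, and without control replicate 2 they were 31 and 39. Cold mRNA replicate 3, in which 6.60% of tallied reads fell on genes against 25.7% to 31.2% in the other 5 libraries, mattered less: without it the counts were 68 and 80.

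COR15A led the rises. It encodes a chloroplast protein that protects membranes on freezing, and its locus at 52 nt had folds of 1.35, 1.44 and 1.4004 in the cold lists, 2.17 and 1.66 in control lists 1 and 3 and, in control list 2, an overlapping peak with its summit outside the start zone. Its mRNA read 3750, 3113 and 2567 CPM in cold and 38.8, 40.0 and 13.3 CPM in control (log2 change 6.60 ± 0.50 SE, edgeR adjusted p = 0.000388). COR15A has a close copy, and reads with more than 1 alignment were given to no gene, so its counts are uncertain. CT-BMY, a chloroplast beta-amylase of starch breakdown, had 1368, 878 and 772 CPM in cold and 119, 131 and 128 CPM in control (log2 change 2.91 ± 0.24 SE, edgeR adjusted p = 0.000221). Its start locus was called in the 3 control lists and in no cold list, though in all 3 cold lists a peak with its summit outside the start zone overlapped it.

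OEP16-1 of the outer plastid envelope (log2 change 3.68 ± 0.51 SE), AT1G53035 of unknown function (3.64 ± 0.34) and HMGB2, a chromatin protein (2.47 ± 0.25), also rose, with edgeR adjusted p of at most 0.00447. AT1G53035, with 26.7, 19.8 and 47.2 CPM in cold and 2.66, 1.85 and 2.32 CPM in control, was called in the 3 cold lists only, with q of at most 0.05 in 3 of 3.

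PIP2A, a water channel of the plasma membrane, had the most reads of the hosts that fell most, with 225, 256 and 299 CPM in cold against 1639, 1526 and 820 CPM in control (log2 change -2.44 ± 0.27 SE, edgeR adjusted p = 0.000770). Its start locus was in all 6 lists, with folds of 2.60, 2.49 and 2.00 in cold and 1.64, 1.62 and 2.00 in control. SIS, annotated as an RLIM-like ubiquitin ligase (log2 change -3.40 ± 0.61 SE), AT1G67750, a pectate lyase (-2.92 ± 0.27), TPPJ, a trehalose-6-phosphate phosphatase (-2.20 ± 0.31), and AT3G26450, a lipid-transport family gene (-2.06 ± 0.19), fell with edgeR adjusted p of at most 0.0104. SIS and AT1G67750 had control-only loci. These 10 mRNA calls passed without each library in turn.

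In polysomes 28 of 498 hosts tested were called higher (5.62%) and 23 lower (4.62%), where 3.87% and 3.95% of all genes were (7.82% in both directions). The median log2 change was 0.13 in the hosts and -0.02 in all genes. With 2 libraries a group, the counts were 65 and 35 without cold polysome replicate 2, 6 and 13 without control replicate 1 and 10 and 10 without control replicate 2.

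COR15A rose in polysomes from 687 and 201 CPM in control to 7494 and 9133 CPM in cold (log2 change 4.21 ± 0.67 SE, edgeR adjusted p = 0.0272). CT-BMY rose too (log2 change 3.34 ± 0.49 SE, edgeR adjusted p = 0.0249), as did OEP16-1 (2.75 ± 0.52 SE, edgeR adjusted p = 0.0360) and AT5G42570, a homologue of a B-cell receptor-associated protein (2.58 ± 0.37 SE, edgeR adjusted p = 0.0244). Left-out libraries ended some of these calls. The adjusted p of COR15A was 0.103 and 0.0970 without cold replicates 1 and 2, that of OEP16-1 0.0628 and 0.0881 without control replicates 1 and 2, and that of AT5G42570 0.0574 without control replicate 1. SIS, AT3G26510, AT4G33666 and UBC5 fell, by log2 changes of -3.27 ± 0.32, -2.95 ± 0.26, -2.59 ± 0.33 and -2.54 ± 0.22 SE (edgeR adjusted p of at most 0.0220).

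TE changed in 1 recurrent host upward and 1 downward of 499 tested, 0.20% each, where 0.065% and 0.22% of 20001 genes were called (0.285% in both directions). In the mRNA libraries 6.60% to 31.2% of tallied reads fell on genes, and in the polysome libraries 92.8% to 93.8%. Reads with more than 1 alignment made up 61.9% to 82.2% in the mRNA libraries and 4.65% to 5.50% in the polysome libraries. The part of this difference between the assays in the TE values was not tested. MIPS1, which makes inositol phosphate from glucose phosphate, had less mRNA in cold (448, 424 and 378 CPM against 661, 770 and 813) and more in polysomes (791 and 1209 CPM against 185 and 288), with a TE change of 2.93 ± 0.36 SE (edgeR interaction, adjusted p = 0.0139). The adjusted p was 0.0507 without control mRNA replicate 2 and 0.0607 without control polysome replicate 1. UBC5, a ubiquitin-conjugating enzyme with a control-only start locus, had 9.52, 12.4 and 17.4 CPM of mRNA in cold against 18.1, 17.1 and 16.4, and 11.8 and 12.0 CPM in polysomes against 74.8 and 62.3. Its TE change was -2.08 ± 0.32 SE (edgeR interaction, adjusted p = 0.0267), and 6 of the 10 left-out libraries ended the call, with adjusted p up to 0.143 without control polysome replicate 1. The median TE change was 0.03 in the hosts and -0.05 in all genes. At an unadjusted p under 0.05 the edgeR fit had 49 hosts higher and 35 lower. The share over all genes at that threshold is not given, so these counts have no background here.

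**Figure D4:**
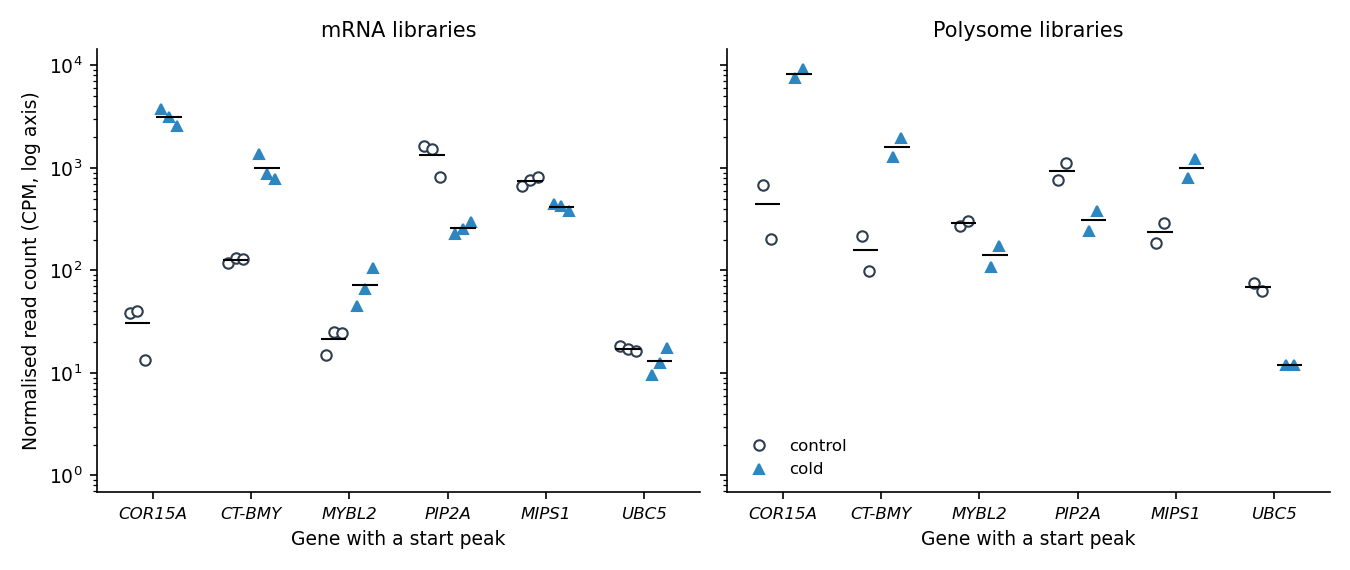
Normalised read counts (CPM, log axis) of 6 genes with start peaks in the mRNA (left, 3 control and 3 cold) and polysome libraries (right, 2 and 2); each point is a library and bars are means. COR15A and CT-BMY are higher in cold in both panels and PIP2A lower, MYBL2 is higher in cold mRNA and lower in cold polysomes, and MIPS1 has the opposite pattern.

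Genes known to be regulated through uORFs often had a start peak, though weak and irregular ones. Of 22 such genes 12 had one in some list (54.5%), where 15.3% of all measured genes did; the median mRNA level of the list was 43.0 CPM and that of measured genes 17.5. The start zone takes in the whole leader, and 24.4% of measured genes in the bin of longest leaders had a start peak. The part of leader length in the 54.5% was not tested. Recurrent loci lay on 3 of the 22 genes, bZIP2 and SAMDC1 among them. bZIP2, whose leader peptide responds to sucrose, was called in 3 cold and 2 control lists with the summit at -153 nt. SAMDC1, of polyamine synthesis, was called in 2 cold and 3 control lists at -64 nt, with folds of 1.296 to 1.407 that stood at a mean percentile of 0.75 of their lists. SAC51, a bHLH factor whose uORF responds to thermospermine, was called in 2 lists of each condition at -398 nt and so was not recurrent. In mRNA 6 of the 22 were lower and 0 higher by edgeR at an adjusted p under 0.05, where 12.3% and 13.4% of all genes were. DESeq2 gave 7 and 0, and edgeR 9 and 1 when p was left unadjusted. In TE 0 were called by edgeR, 2 higher by DESeq2, and 2 higher with unadjusted p in edgeR.

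The m6A machinery itself had start peaks on 3 of 23 measured members (13.04%), near the 15.3% of all measured genes. ALKBH10B, the demethylase, was called in control lists with folds of 2.95, 2.1005 and 3.56 and in cold list 1 with 2.74, with its summit 13.5 nt after the first base of the start codon. Its mRNA did not pass the test (log2 change 0.06 ± 0.16 SE, edgeR adjusted p = 0.791). ECT2, a YTH reader, had a locus at 56 nt in 3 control lists and 1 cold list and another at -18 nt in 2 control lists and 1 cold list, and ECT1, its relative, a locus in 1 cold list. ECT2 mRNA read 566, 665 and 632 CPM in cold and 409, 371 and 400 CPM in control (log2 change 0.57 ± 0.14 SE, edgeR adjusted p = 0.0193). Of the 23 members tested 6 rose in mRNA and 0 fell by edgeR, as by DESeq2, with 1 lower at an unadjusted p under 0.05; with library totals 3 rose. Of all genes 13.4% were called higher and 12.3% lower.

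Of the translation initiation genes 8 of 15 measured members had a start peak (53.3%), where 15.3% of all measured genes did; their median mRNA level was 167 CPM against 17.5. EIFISO4G1, a scaffold of the plant-specific cap-binding complex, had one at -8 nt in all 6 lists, with folds of 1.47, 1.73 and 1.94 in cold and 1.81, 2.39 and 3.49 in control. Its mRNA rose from 161, 145 and 138 CPM to 245, 244 and 294 CPM (log2 change 0.73 ± 0.14 SE, edgeR adjusted p = 0.00699). PAB4, a poly(A)-binding protein, was called in 5 lists, EIF4A1, an RNA helicase, in 4 and GCN2, a kinase that lowers initiation, in 3. Of 16 members tested 9 rose in mRNA (3 with library totals) and 0 fell by edgeR, as by DESeq2, while with unadjusted p in edgeR 11 were higher and 0 lower. The shares over all genes were 13.4% higher and 12.3% lower. The median log2 change of the members was 0.53.

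A start peak was found on 6 of the 24 cold-response genes, 28.6% of the 21 measured, and 1 locus, that of COR15A, was recurrent. Of all measured genes 15.3% had a start peak, and 28.3% of the bin of highest mRNA level did; the median level of the cold-response genes was 261 CPM. COR413PM1, a membrane protein, was called in 2 lists of each condition, KIN2 in 1 of each and ICE1, a regulator upstream of the CBF genes, in 2 cold lists. Of 23 members tested 16 rose in mRNA and 0 fell by edgeR, at an adjusted and at an unadjusted p under 0.05, and by DESeq2, where 13.4% of all genes rose and 12.3% fell. KIN2 has a near-identical copy and its counts are uncertain.

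Photosynthesis genes had start peaks on 12 of 26 members (46.2%; 15.3% of all measured genes), at a median percentile of 1.14 of their lists, so these were among the weakest folds of all. Their median mRNA level was 1695 CPM, in samples labelled as whole seedlings. LHCA1, of the photosystem I antenna, was called in 2 cold and 3 control lists with folds of 1.31 to 1.39. In mRNA 3 of the 26 rose and 6 fell (2 and 11 with library totals), where 13.4% and 12.3% of all genes did. Cytosolic ribosomal proteins, at a median of 282 CPM, had start peaks on 2 of 21 members (9.52%), RPL10C and RPS18A, each in 1 list, while 11 of the 21 rose in mRNA by edgeR and 0 fell (2 rose with library totals, 12 by DESeq2, while with unadjusted p in edgeR 17 were higher and 0 lower).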

How the data were processed

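The submitters' processing notes name STAR, HTSeq and MACS2 and the build TAIR10, without versions. How HTSeq treated strand, and with which annotation release, is not given in the sources used here. Peak lists as the authors deposited them hold a score, a fold (ratio), −log10 values of p and q and a summit per peak; each list came from 1 library, and whether the mRNA libraries served as the caller's background is not given in the sources used here. The lists reach down to an unadjusted p of about 0.05. The authors deposited raw read counts per gene, 3282574 to 10965304 per mRNA library and 12984431 to 22200225 per polysome library.

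Summits were placed on the spliced first isoforms of RefSeq TAIR10.1, with the gene on the strand opposite to that in the peak name: 136074 peaks (95.1%) fell on 1, and 2060 others did so only by the same-strand reading. Of the start peaks 70 also lay in a second gene with another class. Counts were fitted with edgeR 4.0.16 (TMM, filterByExpr, quasi-likelihood, R 4.3.3) on all genes, with Benjamini-Hochberg adjustment and a threshold of 0.05. TE is the interaction over 10 libraries. CPM used TMM factors over the 10 libraries. The fits were tested on simulated counts. No replicate pair agreed within sampling noise. DESeq2 1.42.0, other normalisations, windows, thresholds and left-out libraries were tried as alternatives.

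Named genes are the 10 loci in all 6 lists with the highest mean percentile of fold, the 5 cold-only and 5 control-only loci of highest percentile with at least 20 CPM, the 5 largest mRNA and 4 largest polysome and TE changes each way among recurrent hosts whose log2 CPM averages 4 or more, and up to 4 members of each of 6 gene lists. The members, lists and alternatives were chosen with earlier results of these data known; the C-rich composition was looked at after the peaks had been seen.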

Additional observations from a re-analysis of the deposited data

Results flagged for a closer look

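The cold change of polysomal RNA differed from that of mRNA, by the interaction test of edgeR, for 3 genes named above. MIPS1 moved apart by 2.93 on the log2 scale and UBC5 by -2.08, with the values given above. LHCB1.4, a light-harvesting protein with start peaks in 2 cold lists and 1 control list, moved apart by -3.32 ± 0.54 SE (adjusted p = 0.0373): its mRNA read 324, 400 and 828 CPM in cold against 118, 194 and 185 CPM, and its polysomal RNA 470 and 385 CPM against 1474 and 1280 CPM. LHCB1 genes are near-identical copies, so the counts of LHCB1.4 are uncertain; MIPS1 and UBC5 also belong to families with close copies.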

How the results depend on the processing

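Cold minus control in the start share of peaks turned from -0.0315 to 0.307 percentage points with q of at most 0.05, 0.387 with a fold of at least 2 and 0.015 with a window of 50 nt. The exact permutation p was 0.5 for the q setting and 0.1, the smallest possible, for the fold setting. The difference ran from -0.228 to 0.232 with 1 list left out (0.232 without cold replicate 3, 0.0656 without control replicate 2). The gap of start to stop peaks in the share with q of at most 0.05 ran from -22.1 to -20.1 points and that in fold percentile from -15.7 to -13.1 with 1 list left out; 5 lists cannot go below an exact permutation p of 0.0625. The percentile gap was -1.02 among peaks with q of at most 0.05. Cold-only loci numbered 3 with q of at most 0.05, 15 with a window of 50 nt, 11 where no peak of any class was allowed (chosen after seeing the data) and 29 to 87 with 1 list left out. Control-only loci numbered 5, 19, 30 and 46 to 108. With 1 list left out the rule is looser, so the higher counts follow largely from the rule.

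Hosts called higher and lower in mRNA were 31 to 68 and 39 to 80 with 1 library left out, 29 and 99 with library totals, and 5 and 3 with hosts chosen by q of at most 0.05. In polysomes they were 6 to 65 and 10 to 35, 44 and 38 with no filter on low counts, 69 and 51 with DESeq2, and 2 and 2 with hosts by q. In TE they were 0 to 3 and 0 to 3, 18 and 11 with DESeq2, 0 and 0 with hosts by q, and 2 were lower with library totals. For the counts by DESeq2, without the filter and with left-out libraries, the shares over all genes are not given, so those counts have no background here. The causes were not tested.

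The labels tie no replicate numbers across conditions. Deviations of same-numbered mRNA libraries correlated at -0.0452, -0.0446 and 0.242, so the numbers were not taken as pairs. The 2 polysome pairs correlated at 0.470, and at -0.470 when crossed; 2 libraries a group fix these to be opposite, and whether the numbers pair the polysomes is not settled. With a replicate block the calls were 67 and 69 in mRNA, 80 and 63 in polysomes and 4 and 2 in TE, and the share difference had an exact permutation p of 1.0. Of 212 values of single genes under the alternatives 199 kept their call and 13 lost it, in each case without 1 library.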
